A study of Homo sapiens with 30 samples.

Results

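The levels of 9 noncoding RNA genes were followed in T47D, an established line of human luminal breast cancer that carries the progesterone receptor. They are MALAT1 and NEAT1, long RNAs that stay in the nucleus, and the small nucleolar RNA (snoRNA) host genes GAS5, SNHG1, SNHG8, SNHG12, SNHG15, ZFAS1 and DANCR. They were chosen by name, with earlier results of these data known. All 9 were found by matching Ensembl identifiers to symbols among the 60554 genes of the count files. All 9 passed the filter on low counts in every fit. The series holds 30 samples of T47D at passages 18 to 20, and the 12 RNA-seq libraries were used, and the 18 samples of ChIP-seq are not analysed here.

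The 12 libraries form 6 groups of 2. The siControl progestin group received a control siRNA and the progestin R5020 at 10 nM and carries the label T360, and the siControl untreated group received the control siRNA alone and carries the label T0. The siCEBPA progestin and siCEBPA untreated groups differ from these in an siRNA against CEBPA, the gene of the transcription factor C/EBPα. All 4 siRNA groups had a short arrest, which the protocols give as 4 hours in charcoal-treated serum before hormone. The ICRF progestin group also received R5020 at 10 nM, and the ICRF untreated group did not. Both ICRF groups carry no siRNA, arrest or time label. The labels do not explain ICRF; the name usually denotes a topoisomerase II inhibitor, and the series design speaks of inhibiting Topo2a. No untreated library carries the label T360, so hormone and time label cannot be told apart in siRNA cells. Nothing in the labels tells if the 2 replicates of a group were grown apart, so p-values reflect only the scatter of these libraries, which could be technical.

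MALAT1 RNA gathers in nuclear speckles, bodies rich in splicing factors, and NEAT1 RNA is the scaffold of another nuclear body, the paraspeckle. A snoRNA host gene carries snoRNAs in its introns; splicing releases the introns, the snoRNAs are trimmed out and bound by nucleolar proteins, and they then guide chemical modification or cleavage of ribosomal RNA and related RNAs. The spliced host RNA of several such genes begins with a run of pyrimidines like that of ribosomal protein messenger RNAs, is bound by ribosomes and is removed by nonsense-mediated decay, so its level depends on both synthesis and decay. GAS5 was named for its accumulation in growth-arrested cells and is known to bind the glucocorticoid receptor. MALAT1 and the long form of NEAT1 end in a triple helix in place of a usual poly(A) tail, and the library kit named in the protocols selects poly(A) RNA, so their counts need not follow their amount in the cell as those of tailed RNAs do.

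Library totals ran from 57364785 to 148624099 counted read pairs. The siControl untreated replicate 2 library was the deepest, the next siRNA library had 70704799, and the 4 ICRF libraries had 103156070 to 108066269. CEBPA, the siRNA target, was at 57.5 and 62.2 CPM (counts scaled to library size) in siCEBPA progestin libraries, against 207 and 204 CPM in siControl progestin libraries. In untreated cells CEBPA was at 10.7 and 12.1 CPM with siCEBPA, against 47.7 and 54.4 CPM with siControl. The summed level of 19 markers of other cell types lay between 55.5 and 87 CPM in every library, nearly all of it COL1A1 and ACTA2, while the T cell gene CD3E and the red cell gene HBB had 3 counts each over all 12 libraries. The summed level of 13 mitochondrial messenger RNAs ran from 23175 to 40378 CPM and was highest in the siControl untreated replicate 2 library. The luminal marker KRT8 reached 3984 CPM and PGR, the progesterone receptor gene, 989 CPM.

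The genes lie on 5 chromosomes of hg38 as annotated in the count files. MALAT1 (chr11:65497762-65506516, plus strand) and NEAT1 (chr11:65422774-65445540, plus strand) are each counted as 1 block, of 8755 and 22767 bases. SNHG1 lies on the same chromosome (chr11:62851988-62855914, minus strand). GAS5 (chr1:173863900-173868882) and SNHG12 (chr1:28578538-28582983) lie on the minus strand of chromosome 1. SNHG8 (chr4:118278709-118279823) and DANCR (chr4:52712404-52720351) lie on the plus strand of chromosome 4. SNHG15 (chr7:44983023-44986961) is on the minus strand and ZFAS1 (chr20:49278178-49295738) on the plus strand. The merged exons of all annotated transcripts cover 3756 of 3927 bases of SNHG1 and 3647 of 3939 bases of SNHG15, but 2243 of 17561 bases of ZFAS1. They cover 923 of 1115 bases of SNHG8, 3377 of 4446 bases of SNHG12 and 3631 of 4983 bases of GAS5. Counts of SNHG1, SNHG15, SNHG8, SNHG12 and GAS5 can therefore include unspliced RNA, and a change in them does not say whether spliced RNA changed.

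The snoRNAs themselves were nearly invisible to this assay. Genes inside the hosts whose matched symbol begins with SNOR or SCARNA were searched, so snoRNA genes without such a symbol would be missed. The search found 18 snoRNA genes inside 6 of the 7 hosts and 0 inside GAS5. Together the 18 had 909 counts over the 12 libraries, against 77450 counts for SNHG1 alone. SNORD12B, in ZFAS1, had 278 counts and SNORD99, in SNHG12, had 268. No count option for overlapping genes was set, so pairs that fell wholly in a snoRNA inside a host exon were left unassigned. The values below are those of the host RNAs and carry no measure of the snoRNAs.

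Promoter windows of 300 bases, 250 before and 50 after the annotated start, were available from RefSeq (GRCh38.p14) for 7 of the 9 genes, with 2 windows for MALAT1 and none for NEAT1 and SNHG15. The run of pyrimidines named above was searched as 5 or more C or T, the first a C, beginning within 5 bases of the start on the gene's own strand. It was found in 4 of the 8 windows, those of SNHG8, SNHG12, ZFAS1 and DANCR, and in 18.1% of 35116 RefSeq windows. These 4 are shown as the 50 bases before the start and the 20 from the start on, 5′ to 3′, with the run in capitals, followed by SNHG1, which had none at this start.
SNHG12: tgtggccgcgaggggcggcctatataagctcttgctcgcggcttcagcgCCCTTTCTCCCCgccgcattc
SNHG8: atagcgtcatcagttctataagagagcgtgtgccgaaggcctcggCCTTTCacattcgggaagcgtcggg
ZFAS1: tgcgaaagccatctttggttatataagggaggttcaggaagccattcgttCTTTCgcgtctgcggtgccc
DANCR: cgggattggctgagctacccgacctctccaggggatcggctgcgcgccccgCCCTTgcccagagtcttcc
SNHG1: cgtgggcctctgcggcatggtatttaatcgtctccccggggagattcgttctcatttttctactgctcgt
SNHG12 has the longest run, of 12 bases, and SNHG8, ZFAS1 and DANCR have runs of 6, 5 and 5. The windows are chr1:28581854-28581923 (minus), chr4:118278712-118278781 (plus), chr20:49278592-49278661 (plus), chr4:52712344-52712413 (plus) and chr11:62855866-62855935 (minus). The RefSeq starts are not those of the count annotation: for ZFAS1 they are 49278642 and 49278178. The letters TATAA, searched on the gene's own strand 40 to 16 bases before the start, were in 4 of the 8 windows, those of SNHG8, SNHG12, ZFAS1 and 1 of MALAT1, and in 3.91% of all windows. The steroid receptor site AGAACA, on either strand, was in 1 of the 8, a MALAT1 window, and in 14.8% of all. Both MALAT1 matches, TATAA and AGAACA, were in the window of the RefSeq start 65499045, which lies inside the counted gene. The MALAT1 window of the start 65497738, near the counted start of 65497762, had neither. The C/EBP letters TTGCNNAA, on either strand, were in 0 of the 8 and in 10.5% of all. A match is a description of letters and not of binding.

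Per kilobase of annotated exon, GAS5 was the most abundant of the 9 genes at 51.7 CPM per kilobase on average over the 12 libraries, followed by ZFAS1 at 44.9 and SNHG8 at 30. SNHG1 averaged 20.5, MALAT1 16.4, DANCR 15.8 and SNHG15 15.7 CPM per kilobase. NEAT1 was low on this scale, at 4.39 CPM per kilobase, its count being divided by the 22767 bases of the long form, and SNHG12 was lowest at 2.46. Over the 12 libraries NEAT1 moved the most, with a highest level 6.36 times its lowest, and DANCR the least, with a ratio of 1.55. MALAT1, SNHG15 and SNHG12 spanned 3.69, 3.30 and 3.21 times.

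**Figure D1:**
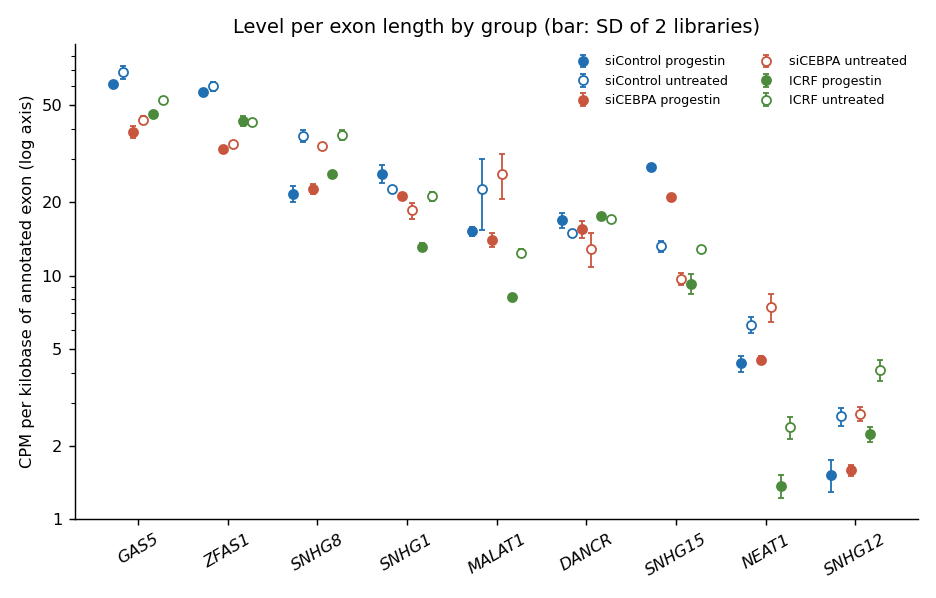
Mean level of each gene in CPM per kilobase of annotated exon on a log axis, by group, with bars for the SD of 2 libraries; filled points are progestin groups and open points untreated groups. GAS5 and ZFAS1 are highest in every siControl group, and NEAT1 and SNHG12 lie at the bottom.

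Of the 2 nuclear RNAs, NEAT1 fell with progestin in all 3 settings and MALAT1 passed the test in ICRF cells alone, and both had their lowest levels in ICRF cells. NEAT1 had 93.9 and 105 CPM in siControl progestin libraries, against 135 and 151 CPM in siControl untreated libraries. In siCEBPA cells it had 99.8 and 105 CPM with progestin, against 154 and 184 CPM untreated. In ICRF cells it had 29 and 33.6 CPM with progestin, against 50.2 and 58 CPM untreated. The progestin and untreated libraries did not overlap in any of the 3 settings, and all 4 ICRF libraries were below all 8 siRNA libraries. The change was -0.54 ± 0.09 on the log2 scale in siControl cells (SE; edgeR quasi-likelihood test with Benjamini-Hochberg adjustment over all genes, as for every adjusted p below; adjusted p = 0.001), -0.73 ± 0.09 in siCEBPA cells (edgeR adjusted p = 0.000165) and -0.81 ± 0.08 in ICRF cells (edgeR adjusted p = 1.69e-05).

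MALAT1 had 129 and 137 CPM in siControl progestin libraries, against 154 and 243 CPM in siControl untreated libraries. In siCEBPA cells it had 117 and 128 CPM with progestin, against 195 and 262 CPM untreated. In ICRF cells it had 72.1 and 71 CPM with progestin, against 106 and 111 CPM untreated. The groups did not overlap, but the untreated siRNA replicates stood far apart, and the test did not call MALAT1 in siRNA cells. Its log2 difference was -0.59 ± 0.28 in siControl cells (edgeR adjusted p = 0.142) and -0.90 ± 0.28 in siCEBPA cells (edgeR adjusted p = 0.051). The siControl value was -0.22 without the untreated replicate 2 library and -0.88 without the untreated replicate 1 library, where it was called (edgeR adjusted p = 0.0376). The siCEBPA value passed the threshold in 7 of 15 alternatives, among them DESeq2, upper quartile factors, library totals alone and the fits without either of the siControl untreated libraries (-0.89 and -0.90), so its call depends on the processing. The siControl untreated replicate 2 library, high in MALAT1, was also the one with the most mitochondrial RNA and the greatest depth. The library highest in MALAT1, siCEBPA untreated replicate 2 at 262 CPM, had the smallest total, 57364785, and 29409 CPM of mitochondrial messenger RNAs. The part of depth and mitochondrial RNA in the result was not tested. In ICRF cells MALAT1 fell by 0.62 on the log2 scale (SE 0.04, edgeR adjusted p = 9.12e-18), which gave adjusted p = 0.0677 when all 12 libraries entered 1 fit. The ratio of MALAT1 to NEAT1 counts was 2.49 and 2.11 in ICRF progestin libraries and 2.11 and 1.92 in ICRF untreated libraries, against 1.14 to 1.61 in the 8 siRNA libraries.

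**Figure D2:**
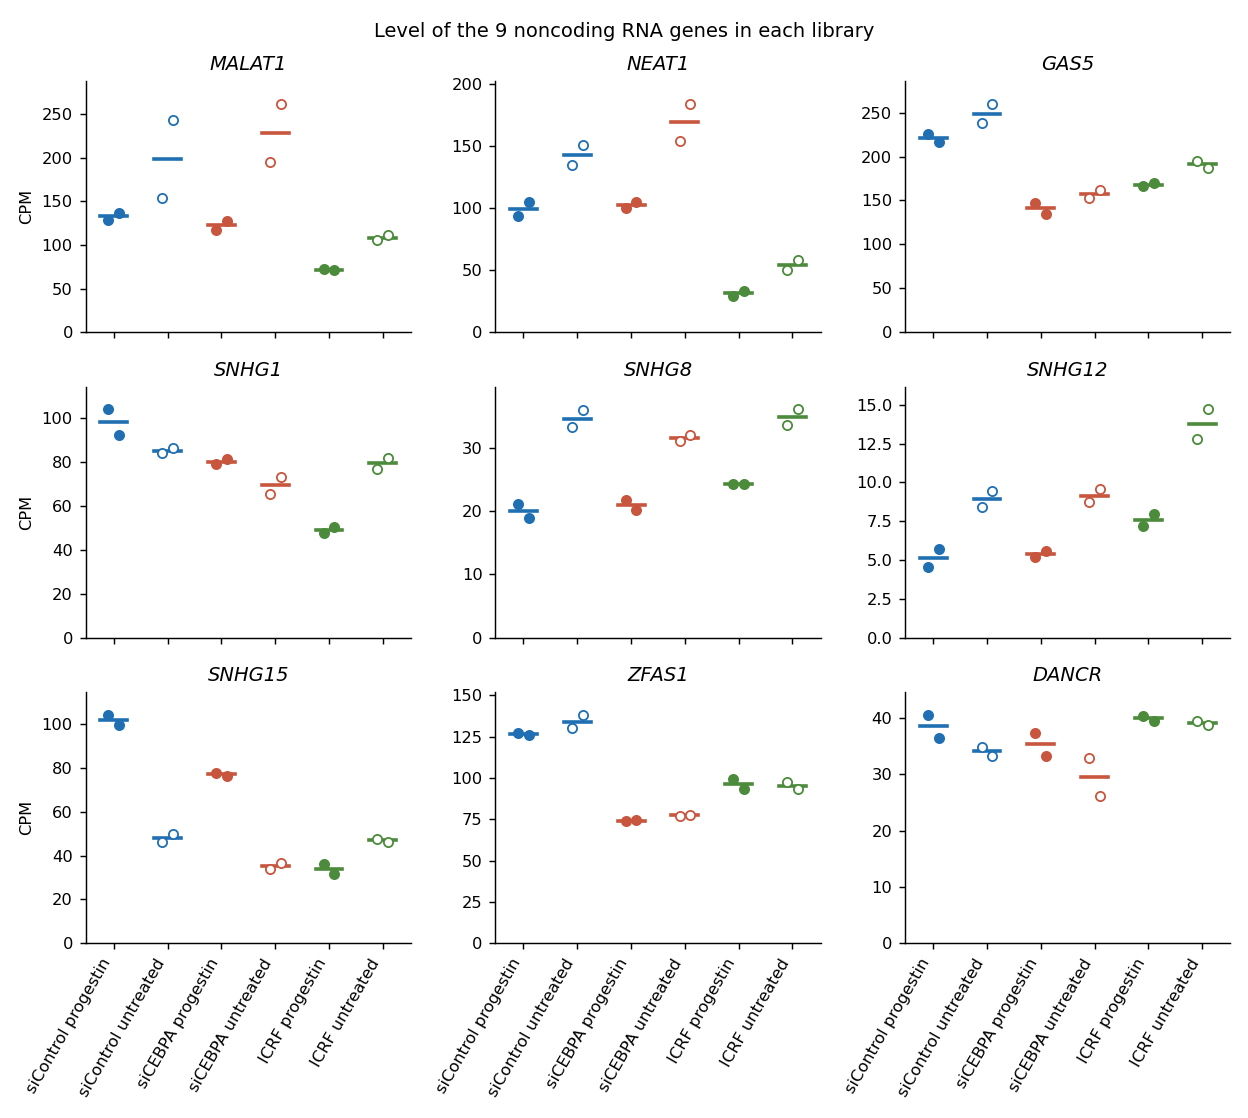
CPM of each gene in each of the 12 libraries (filled points, progestin; open points, untreated; blue, siControl; red, siCEBPA; green, ICRF), with a line at the mean of 2. SNHG15 reaches 104 and 99.4 CPM in the siControl progestin libraries and 36.1 and 31.5 CPM in the ICRF progestin libraries, and GAS5 and ZFAS1 are lower in the siCEBPA groups than in the siControl groups.

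Among the snoRNA hosts, SNHG15, which carries the snoRNA SNORA9, rose most with progestin in siRNA cells and fell in ICRF cells. It had 104 and 99.4 CPM in siControl progestin libraries, against 46.2 and 49.7 CPM in siControl untreated libraries. In siCEBPA cells it had 77.8 and 76.2 CPM with progestin, against 34.1 and 36.8 CPM untreated. In ICRF cells the order was turned, with 36.1 and 31.5 CPM with progestin, against 47.6 and 46.3 CPM untreated. Progestin and untreated libraries did not overlap in any of the 3 settings. The log2 changes were 1.07 ± 0.05 in siControl cells (edgeR adjusted p = 5.77e-11), 1.11 ± 0.06 in siCEBPA cells (edgeR adjusted p = 5.03e-11) and -0.49 ± 0.05 in ICRF cells (edgeR adjusted p = 4.81e-10). The first corresponds to 2.10 times the untreated level.

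SNHG1, which carries SNORD22 and the SNORD25 to SNORD30 group, was higher with progestin in siRNA cells, by less than SNHG15, and lower with progestin in ICRF cells, by more. It had 104 and 92.4 CPM in siControl progestin libraries, against 84.3 and 86.3 CPM in siControl untreated libraries. In siCEBPA cells it had 79 and 81.3 CPM with progestin, against 65.7 and 73.3 CPM untreated. In ICRF cells it had 47.8 and 50.4 CPM with progestin, against 77.1 and 82 CPM untreated, the lowest levels of any group being those of ICRF progestin. The ICRF fall of -0.71 ± 0.04 (edgeR adjusted p = 2.22e-18) was called under every alternative run. The rises in siRNA cells, 0.19 ± 0.06 in siControl (edgeR adjusted p = 0.0122) and 0.20 ± 0.06 in siCEBPA cells (edgeR adjusted p = 0.0103), were small and depended on the scaling: with upper quartile factors they were 0.08 and 0.07, with library totals alone 0.04 and 0.03, and none of these was called. The siControl rise was 0.11 without the progestin replicate 1 library and 0.18 without the untreated replicate 1 library, and the siCEBPA rise 0.14 without the untreated replicate 1 library, none of them called.

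SNHG8, host of SNORA24, and SNHG12, host of SNORD99, SNORA61, SNORA44 and SNORA16A, were lower with progestin in all 3 settings. SNHG8 had 21.1 and 18.9 CPM in siControl progestin libraries, against 33.2 and 35.9 CPM in siControl untreated libraries. It had 21.7 and 20.2 CPM with progestin in siCEBPA cells, against 31 and 32 CPM untreated. With ICRF it had 24.2 CPM in both progestin libraries, against 33.6 and 36 CPM in the untreated ones. All 6 progestin libraries were below all 6 untreated libraries, and the log2 changes were -0.80 ± 0.07, -0.60 ± 0.07 and -0.54 ± 0.06 in siControl, siCEBPA and ICRF cells (edgeR adjusted p = 7.22e-08, 2.73e-06 and 1.22e-11). SNHG12 was the least abundant gene, with 4.58 and 5.69 CPM in siControl progestin libraries, against 8.4 and 9.43 CPM in siControl untreated libraries. It had 5.19 and 5.58 CPM with progestin in siCEBPA cells, against 8.73 and 9.57 CPM untreated. With ICRF it had 7.19 and 7.95 CPM with progestin, against 12.8 and 14.7 CPM untreated. Its log2 changes were -0.82 ± 0.11, -0.77 ± 0.11 and -0.88 ± 0.08 (edgeR adjusted p = 1.1e-05, 2.28e-05 and 2.21e-12), so its ICRF libraries moved by a like amount from a higher level.

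GAS5 was lower with progestin by a small amount. It had 226 and 217 CPM in siControl progestin libraries, against 238 and 260 CPM in siControl untreated libraries. It had 147 and 135 CPM with progestin in siCEBPA cells, against 153 and 162 CPM untreated. In ICRF cells it had 166 and 170 CPM with progestin, against 195 and 187 CPM untreated. The log2 changes were -0.18 ± 0.05, -0.17 ± 0.05 and -0.20 ± 0.04 in siControl, siCEBPA and ICRF cells (edgeR adjusted p = 0.00761, 0.0139 and 2.74e-06). The siControl call was lost without the untreated replicate 2 library, at -0.11, and without the progestin replicate 2 library, at -0.15; the siCEBPA call was lost without the untreated replicate 2 library, at -0.12, and without the progestin replicate 2 library, at -0.10. NR3C1, the glucocorticoid receptor gene, had 15.9 and 15 CPM in siControl progestin libraries, against 24.3 and 23.8 CPM in siControl untreated libraries.

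ZFAS1, which carries the SNORD12 family, and DANCR, host of SNORA26, were not called for the hormone. ZFAS1 had 127 and 126 CPM in siControl progestin libraries, against 130 and 138 CPM in siControl untreated libraries. Its siCEBPA libraries had 73.8 and 74.7 CPM with progestin, against 77.2 and 77.9 CPM untreated, and its ICRF libraries 99.6 and 93.6 CPM with progestin, against 97.5 and 93.3 CPM untreated. Its log2 differences were -0.10 ± 0.04, -0.07 ± 0.04 and 0.00 ± 0.04 (edgeR adjusted p = 0.0708, 0.187 and 0.96). In siRNA cells they were -0.21 and -0.20, and called, with upper quartile factors, and -0.25 and -0.24, and called, with library totals alone. The siControl value was also called without the untreated replicate 1 library, at -0.13. DANCR had 40.5 and 36.5 CPM in siControl progestin libraries, against 34.9 and 33.2 CPM in siControl untreated libraries. In siCEBPA cells it had 37.4 and 33.3 CPM with progestin, against 32.8 and 26.2 CPM untreated, while its ICRF libraries all lay between 38.7 and 40.4 CPM. In siControl cells the DANCR value passed the threshold in 5 of 15 alternatives. The DANCR differences were 0.17 ± 0.10, 0.25 ± 0.10 and 0.02 ± 0.05 (edgeR adjusted p = 0.179, 0.0537 and 0.78). The siCEBPA value passed the threshold in 7 of 15 alternatives, and was 0.44 without the untreated replicate 1 library and 0.34 without the progestin replicate 2 library.

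**Figure D3:**
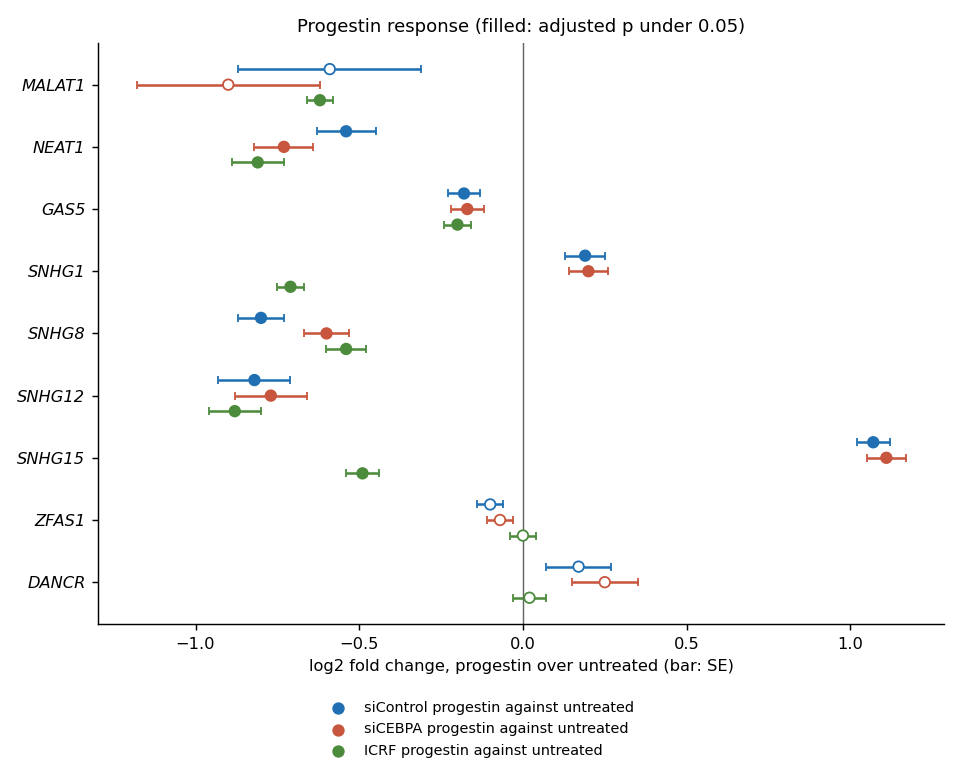
log2 fold change of progestin over untreated libraries in siControl (blue), siCEBPA (red) and ICRF (green) cells for each gene, with bars for the SE and filled points where the adjusted p was under 0.05. SNHG15 and SNHG1 lie right of 0 in siRNA cells and left of 0 in ICRF cells, while NEAT1, SNHG8 and SNHG12 lie left of 0 in all 3.

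In siControl cells 6 of the 9 genes were called for the hormone, 2 higher and 4 lower, against 58.5% of the 18351 genes tested (29.2% higher, 29.3% lower). In siCEBPA cells the count was the same, 2 higher and 4 lower, against 58.2% (29.9% higher, 28.4% lower). In ICRF cells 7 were called, all lower, against 61.4% of 18556 (31.3% higher, 30% lower). Counted in either direction, these numbers lie near the background shares. By direction, the 7 lower and 0 higher genes in ICRF cells stand against nearly even shares of lower and higher genes in the background. The 9 genes were chosen with earlier results of these data known, so this is a description. Their median log2 change was -0.18 in siControl, -0.17 in siCEBPA and -0.54 in ICRF cells, against -0.03, -0.03 and -0.01 over all genes tested. The scaling matters for such directions: the median of all genes moved to -0.15 in siControl and -0.16 in siCEBPA cells with upper quartile factors and to -0.19 in both with library totals alone, and the share of higher genes among the calls, in siCEBPA cells 51.3% with TMM factors, became 36.9% and then 33.3%, and in siControl cells, with 5367 higher and 5374 lower calls under TMM factors, 38.2% and then 33.9%. The knockdown and difference tests reuse the same libraries.

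The design asks whether the hormone response differs with ICRF, and the test of that difference used all 12 libraries in 1 fit. It called 3 of the 9 genes, 1 higher and 2 lower, against 48.9% of 19003 genes (24.9% higher, 24% lower). SNHG15 differed the most, with a response lower by 1.55 ± 0.08 on the log2 scale in ICRF than in siControl cells (difference -1.55, edgeR adjusted p = 4.86e-12). SNHG1 differed by -0.90 ± 0.08 (edgeR adjusted p = 2.15e-08). Both kept their direction and call under the 19 alternatives run for each. SNHG8 fell less with ICRF, by a difference of 0.27 ± 0.09 (edgeR adjusted p = 0.021). That call was lost, with values between 0.19 and 0.23, without ICRF untreated replicate 1, either ICRF progestin library, siControl untreated replicate 2, siControl progestin replicate 2 or either siCEBPA untreated library. The other 6 differences were between -0.26 (NEAT1) and 0.10 (ZFAS1) and were not called, though NEAT1, ZFAS1 and DANCR each passed the threshold in 1 of 19 alternatives. The median over all genes was 0.02 and became 0.17 with library totals alone, and the share of higher genes among the calls moved between 50.9% and 65.2%. The arms also differ in siRNA, arrest and time labels, in depth and in the directory names of the count files' headers, and these cannot be told apart from ICRF. The summed level of 8 luminal markers was 4588 and 4342 CPM in ICRF progestin libraries, against 9777 and 9834 CPM in ICRF untreated libraries, while it was 8083 and 8733 CPM in siControl progestin libraries, against 7778 and 8232 CPM in siControl untreated libraries. By gene, 1 of the 8 was higher and 5 lower with progestin in siControl cells, with a median log2 change of -0.60. In ICRF cells all 8 were lower, with a median of -1.57. Over all genes 29.2% were higher and 29.3% lower in siControl cells, and 31.3% and 30% in ICRF cells. The part of these marker changes in the differences was not tested.

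In untreated cells the ICRF libraries already differed. Against siControl untreated cells, 5 of the 9 genes were called, 1 higher and 4 lower, against 64.6% of genes (32.3% in each direction). NEAT1 differed by -1.41 ± 0.12 (edgeR adjusted p = 2.48e-05), ZFAS1 by -0.49 ± 0.04 (edgeR adjusted p = 3.37e-09) and GAS5 by -0.38 ± 0.05 (edgeR adjusted p = 5.93e-07). SNHG12 was higher by 0.62 ± 0.10 (edgeR adjusted p = 1.57e-05). MALAT1 differed by -0.88 ± 0.23 (edgeR adjusted p = 0.0148), a call lost without either ICRF untreated library (-0.84 and -0.91), without siControl untreated replicate 2 (-0.50) and with only the 4 libraries in the fit. DANCR differed by 0.20 ± 0.08 (edgeR adjusted p = 0.0517) and passed the threshold, higher, in 9 of 19 alternatives, among them DESeq2, upper quartile factors and only the compared libraries. SNHG15 and SNHG8 had nearly equal untreated levels in both arms, with differences of -0.03 ± 0.06 and 0.01 ± 0.06. The SNHG15 libraries of the 2 arms overlapped before hormone and lay far apart after it.

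The knockdown comparison asks what these RNAs do when C/EBPα is reduced. With siCEBPA, ZFAS1, GAS5, SNHG15 and SNHG1 fell in both untreated and progestin-treated cells, and MALAT1, NEAT1, SNHG8, SNHG12 and DANCR were not called in either. In untreated cells the 4 lower genes stood against 46.6% of 18351 genes called (22.6% higher, 24% lower). In progestin-treated cells they stood against 44.6% (22.5% higher, 22.1% lower), and none of the 9 was higher in either. ZFAS1 changed by -0.78 ± 0.04 untreated and -0.76 ± 0.04 with progestin (edgeR adjusted p = 1.32e-09 and 2.38e-09). GAS5 changed by -0.65 ± 0.05 and -0.64 ± 0.05 (edgeR adjusted p = 1.03e-07 and 1.5e-07). SNHG15 changed by -0.43 ± 0.05 and -0.39 ± 0.05 (edgeR adjusted p = 1.01e-05 and 2.22e-05), and SNHG1 by -0.29 ± 0.06 and -0.28 ± 0.06 (edgeR adjusted p = 0.00103 and 0.00136). In each of these 4 genes both siCEBPA libraries were below both siControl libraries, with and without hormone. The share of all genes whose libraries separate in this way is not given, here or for the hormone, so separation is only a description. The falls kept their sign and call under the alternatives run, also with library totals alone, which moved the median of all genes from 0.01 and 0.02 to 0.10 and 0.11 and the share of higher genes among the calls from 48.5% and 50.5% to 65.3% and 64.9%. NEAT1 was higher by 0.25 ± 0.09 in untreated siCEBPA cells (edgeR adjusted p = 0.054); it passed the threshold in 8 of 15 alternatives, among them DESeq2, RLE factors, library totals alone, no filter on low counts, and the fits without siControl untreated replicate 2 (0.33), siControl progestin replicate 2 (0.25) or siCEBPA untreated replicate 1 (0.37). DANCR, at -0.19 ± 0.10 in untreated cells (edgeR adjusted p = 0.142), passed in 3 of 15 alternatives, among them the fit without siCEBPA untreated replicate 1 (-0.38).

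**Figure D4:**
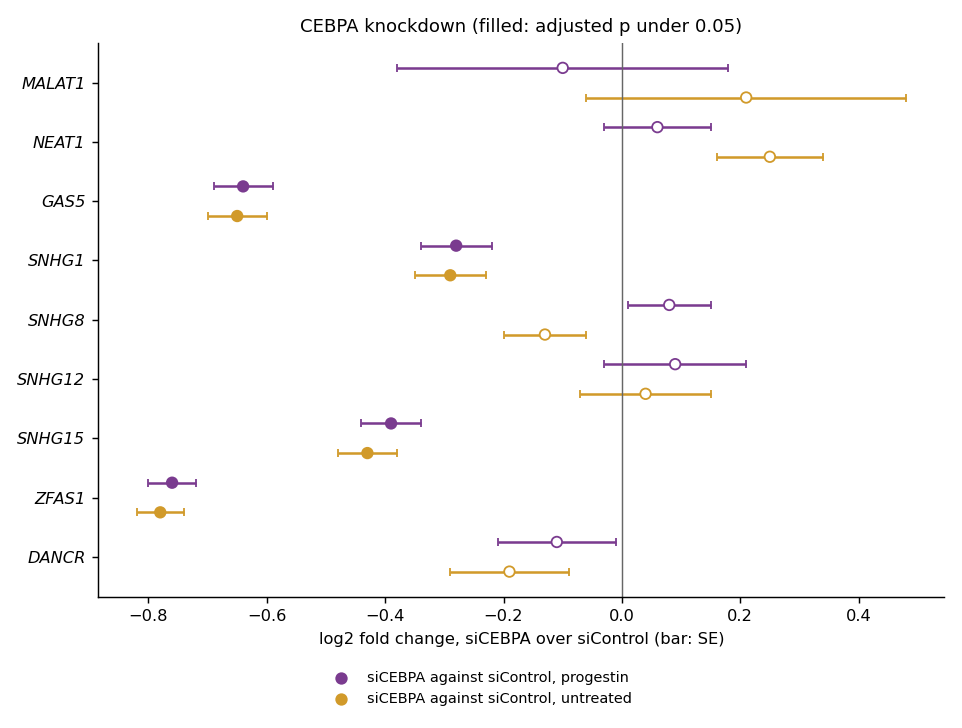
log2 fold change of siCEBPA over siControl libraries for each gene in progestin-treated (purple) and untreated (yellow) cells, with bars for the SE and filled points where the adjusted p was under 0.05. ZFAS1 at -0.76 and -0.78 and GAS5 at -0.64 and -0.65 lie farthest left, and MALAT1 has the widest bars.

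The hormone response itself was not shown to change with the knockdown. CEBPA RNA was itself higher with progestin in siCEBPA cells, at 57.5 and 62.2 CPM, against 10.7 and 12.1 CPM untreated. Those progestin levels lay above the 47.7 and 54.4 CPM of siControl untreated libraries. The part of this remaining CEBPA in the result was not tested, and C/EBPα protein was not measured here. None of the 9 differences between the siCEBPA and siControl responses was called by edgeR in the main fit, none had an unadjusted p under 0.05 there, and DESeq2 called 0, against 7.24% of all genes called (4.19% higher, 3.06% lower). With a replicate block in the fit, the NEAT1 difference was called (edgeR adjusted p = 0.0401). The differences ran from -0.31 ± 0.39 (MALAT1) to 0.21 ± 0.10 (SNHG8). The MALAT1 difference was between -0.68 and -0.01 with 1 library left out and was not called in any such fit. For SNHG15 the responses of 1.11 and 1.07 differed by 0.04 ± 0.08, so its rise was measured on a lower level in siCEBPA cells.

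Related genes were described beside the 9 with lists of their protein partners and of other hosts. These lists were also chosen with earlier results of these data known. Of 29 protein-coding snoRNA hosts, most of them genes of ribosomal proteins and other translation proteins, 28 were lower and 0 higher in untreated siCEBPA cells, with a median log2 change of -0.42, against 0.01 over all genes. In progestin-treated siCEBPA cells 23 were lower and 0 higher, with a median of -0.29, against 0.02. Over all genes 24% were lower and 22.6% higher in untreated cells, and 22.1% lower and 22.5% higher in treated cells. RPL4, a protein of the large ribosomal subunit, changed by -0.65 ± 0.04 untreated (edgeR adjusted p = 2.58e-09) and -0.52 ± 0.04 with progestin (edgeR adjusted p = 3.15e-08). RACK1, a protein of the small subunit, changed by -0.57 ± 0.04 in untreated cells (edgeR adjusted p = 7.22e-09). With library totals alone 25 and 20 of the 29 were still lower and none higher. The falls of ZFAS1 and GAS5 thus stood among those of hosts of both kinds.

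Of 18 other noncoding snoRNA hosts, 15 passed the filter. In untreated siCEBPA cells 6 were lower and 1 higher, and in treated siCEBPA cells 6 lower and 2 higher, against 24% lower and 22.6% higher of all genes in untreated cells and 22.1% lower and 22.5% higher in treated cells. SNHG5 changed by -0.58 ± 0.06 and -0.54 ± 0.06 (edgeR adjusted p = 1.68e-06 and 4.29e-06), and SNHG16 by -0.48 ± 0.05 and -0.47 ± 0.05 (edgeR adjusted p = 4.72e-07 and 5.75e-07). With progestin, 4 were higher and 4 lower in siControl cells, 5 higher and 2 lower in siCEBPA cells, and 4 higher and 6 lower in ICRF cells. Over all genes about as many were higher as lower in each setting (29.2% and 29.3% in siControl, 29.9% and 28.4% in siCEBPA, 31.3% and 30% in ICRF cells), so the siControl counts are at the background. SNHG3 changed by -0.67 ± 0.06 in siControl cells (edgeR adjusted p = 1.2e-07) and -0.74 ± 0.06 in siCEBPA cells (edgeR adjusted p = 4.75e-08). SNHG11 rose by 0.79 ± 0.08 in siControl cells (edgeR adjusted p = 1.77e-07). SNHG17 shared the turn seen in SNHG15: it changed by -0.73 ± 0.07 in ICRF cells (edgeR adjusted p = 2.27e-13) and rose by 0.75 ± 0.09 in siControl cells (edgeR adjusted p = 1.36e-05), and the difference of -1.48 ± 0.12 was called (edgeR adjusted p = 1.7e-08).

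Genes of the proteins that bind and assemble snoRNAs were more often higher than lower with progestin in siRNA cells. Of 18 such genes, 12 were higher and 3 lower with progestin in siControl cells, with a median log2 change of 0.24, against -0.03 over all genes. In siCEBPA cells 13 were higher and 2 lower, with a median of 0.26, and in ICRF cells 4 were higher and 8 lower, with a median of -0.04. The higher and lower shares over all genes were 29.2% and 29.3% in siControl, 29.9% and 28.4% in siCEBPA, and 31.3% and 30% in ICRF cells. The siRNA counts depended on scaling: with library totals alone 5 were higher and 5 lower in siControl and 6 higher and 5 lower in siCEBPA cells. SNU13, a protein that binds box C/D snoRNAs, rose by 0.84 ± 0.04 in siControl cells (edgeR adjusted p = 9.1e-11). SHQ1, an assembly factor for box H/ACA particles, rose by 0.75 ± 0.06 (edgeR adjusted p = 2.3e-08). Between ICRF and siControl responses 11 were lower and 3 higher, against 24% lower and 24.9% higher of all genes. The median difference was -0.36, against 0.02, and SNU13 differed by -0.97 ± 0.06 (edgeR adjusted p = 2.51e-11). NOLC1, a nucleolar chaperone of these particles, was the exception in the knockdown, rising by 0.79 ± 0.04 untreated (edgeR adjusted p = 1.15e-09) while 10 of the 18 fell, against 24% lower and 22.6% higher of all genes.

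Partners of NEAT1 and MALAT1 did not move as 1 group with progestin. Of 15 paraspeckle proteins, 3 were higher and 5 lower with progestin in siControl cells, 3 and 3 in siCEBPA cells, and 2 and 9 in ICRF cells. The shares over all genes were 29.2% higher and 29.3% lower in siControl, 29.9% and 28.4% in siCEBPA, and 31.3% and 30% in ICRF cells, and the siControl counts of paraspeckle and decay genes lie near them. TARDBP, an RNA-binding protein of paraspeckles, rose by 0.83 ± 0.05 in siControl cells (edgeR adjusted p = 2.99e-10), and PSPC1, a core paraspeckle protein, changed by -1.06 ± 0.04 in ICRF cells (edgeR adjusted p = 3.01e-25). Of 20 nuclear speckle and splicing factors, 12 were higher and 5 lower in siControl, 11 and 4 in siCEBPA, and 8 and 11 in ICRF cells. The splicing factors SRSF5 and SRSF6 changed by -1.37 ± 0.05 and -1.17 ± 0.04 in siControl cells (edgeR adjusted p = 4.74e-13 and 3.01e-13). Of 16 nonsense-mediated decay factors, 6 were higher and 5 lower in siControl, 6 and 6 in siCEBPA, and 5 and 5 in ICRF cells. UPF3A changed by -0.70 ± 0.05 and EIF4A3, a part of the exon junction complex, rose by 0.54 ± 0.04 in siControl cells (edgeR adjusted p = 1.55e-08 and 1.66e-08). UPF1, the helicase at the centre of the pathway, rose by 0.54 ± 0.05 in siControl (edgeR adjusted p = 7.24e-08) and 0.57 ± 0.05 in siCEBPA cells (edgeR adjusted p = 4.51e-08). In ICRF cells it rose by 0.43 ± 0.04 (edgeR adjusted p = 1.99e-13). With siCEBPA, 0 of the paraspeckle genes were higher and 7 lower in untreated cells, and 2 higher and 7 lower in treated cells. Of the speckle and splicing genes 0 were higher and 9 lower untreated, and 0 higher and 10 lower treated. Decay factors had 2 higher and 6 lower untreated, and 1 higher and 6 lower treated. Over all genes 22.6% were higher and 24% lower untreated, and 22.5% and 22.1% treated.

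**Figure D5:**
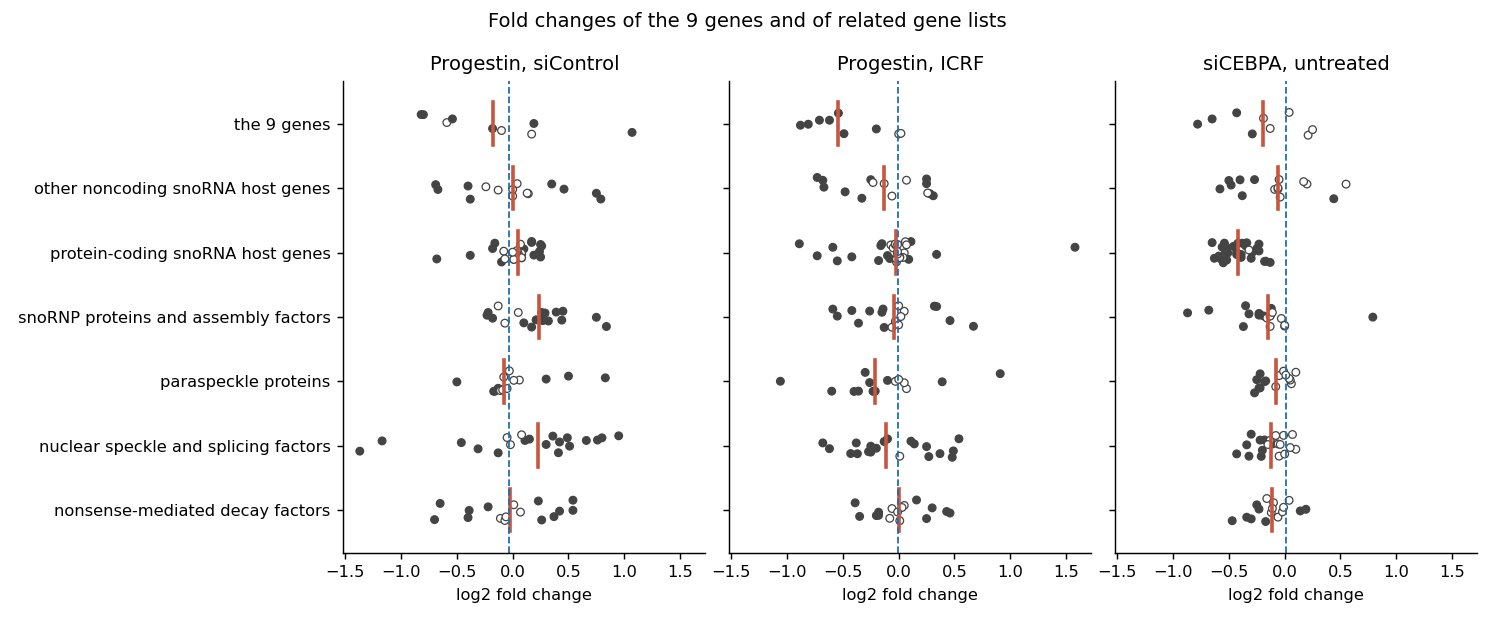
log2 fold change of the 9 genes and of 6 gene lists in 3 comparisons (progestin over untreated in siControl and in ICRF cells, and siCEBPA over siControl in untreated cells), 1 point a gene, filled where the adjusted p was under 0.05; red lines are list medians and the dashed line the median of all genes tested. The protein-coding snoRNA hosts lie left of the dashed line in the siCEBPA panel, around a median of -0.42.

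Neighbouring genes moved with the members in some comparisons and apart from them in others. SLC3A2, a subunit of amino acid transporters, starts 188 bases upstream of SNHG1 on the opposite strand. It fell more than SNHG1 with siCEBPA, by -1.10 ± 0.06 in untreated and -0.73 ± 0.06 in treated cells (edgeR adjusted p = 2.38e-09 and 1.24e-07). With progestin in ICRF cells, where SNHG1 fell by 0.71 on the log2 scale, SLC3A2 differed by -0.08 ± 0.04 (edgeR adjusted p = 0.0787). ZBTB37, a zinc finger gene that overlaps the span of GAS5 on the opposite strand, rose by 0.39 ± 0.06 with siCEBPA in untreated cells (edgeR adjusted p = 4.25e-05), where GAS5 fell. With progestin ZBTB37 rose by 0.51 ± 0.05 in ICRF cells and changed by -0.76 ± 0.06 in siControl cells (edgeR adjusted p = 1.27e-11 and 1.31e-08), while GAS5 changed by -0.20 and -0.18 there. ZNFX1, which shares 249 exon bases with ZFAS1 on the opposite strand, differed by -0.05 ± 0.08 with siCEBPA in untreated cells (edgeR adjusted p = 0.625). Counting was by strand, per the file headers, so opposite-strand pairs were told apart.

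Across the 12 libraries the members fell into pairs of like pattern, given as descriptions because all points share the 6 groups. Pearson's r of log2 CPM was 0.96 between GAS5 and ZFAS1, 0.93 between MALAT1 and NEAT1, 0.89 between SNHG8 and SNHG12 and 0.76 between SNHG1 and SNHG15. MALAT1 and DANCR had r = -0.83. Among 11403 genes searched, the one most like SNHG15 was WDR46 (r = 0.995), followed by RTN4RL1 (0.988) and DDX56 (0.986). The genes most like SNHG1 were AATF (0.979), GNL3 (0.978) and NOP56 (0.978). Those most like NEAT1 were KMT2C (0.993), ATF6B (0.988) and SON (0.988), and most like MALAT1 were ABCC3 (0.973), PABPC1L (0.958) and DLG4 (0.956). ZFAS1 was most like EIF4EBP1 (0.993), TARBP2 (0.988) and HAX1 (0.987), and GAS5 was most like DDIT3 (0.970) and HAX1 (0.967), so HAX1 stood near both. SNHG8 was most like SFT2D3 (0.984), SIPA1 (0.981) and LMO4 (0.980), and SNHG12 most like R3HDM2 (0.978), ODAD3 (0.969) and GBP1 (0.968). DANCR, which moved least, had the lowest likeness, with NDUFB4 (0.941), SNRPC (0.938) and PARK7 (0.935).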

How the data were processed

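The deposited files hold raw counts of read pairs for each of 60554 genes (56558 matched a symbol). Per the file headers, the authors made them with featureCounts 1.5.1 in paired mode, strand option 2, on GENCODE 24 and the build hg38. STAR and Trimmomatic are named in the submitters' processing notes, with no version. Multiply aligned reads had no counting option, which leaves near-identical gene copies uncertain.

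Low counts were removed by filterByExpr, TMM factors set the scale, and tests were robust quasi-likelihood fits, two-sided, in edgeR (4.0.16, with limma 3.58.1, under R 4.3.3). Adjustment was by Benjamini-Hochberg over all genes at a threshold of 0.05. Each SE was obtained by dividing the log2 fold change by the root of F. The siRNA libraries were fitted together (8, with 18351 genes and 4 residual degrees of freedom) and apart from the ICRF libraries (4, with 18556 genes and 2). Comparisons of ICRF with siControl cells used all 12 (19003 genes, 6 residual degrees of freedom). Printed levels are CPM with TMM factors of all 12. Likeness used log2 CPM with a prior count of 2, over genes whose mean reached 5 CPM in 1 or more groups.

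Alternatives were RLE, upper quartile and no factors, no filter on low counts, DESeq2 1.42.0, a replicate block, leaving out each library, and other libraries in the fit. The fits were tested on simulated data. Replicates differed by more than counting noise (mean chi-square per gene 4.55 to 14). The members, the lists and the naming rule were chosen with earlier results of these data known. That rule names the 9 genes, 3 likest genes each, neighbours within 5 kb, the steroid receptors, CEBPA and the 2 genes of smallest p in each list and comparison. Some genes that the rule names are not reported here. Other genes, such as SNHG17 in siControl cells and single markers, were named after their values were seen.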

Additional observations from a re-analysis of the deposited data

Results flagged for a closer look

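The hormone response differed between ICRF and siControl cells, by the edgeR test of the difference over all 12 libraries, in 3 of the 9 genes, against 48.9% of all genes tested. SNHG15 differed by -1.55 on the log2 scale (edgeR adjusted p = 4.86e-12), SNHG1 by -0.90 (edgeR adjusted p = 2.15e-08) and SNHG8 by 0.27 (edgeR adjusted p = 0.021), a call lost in 7 of 19 alternatives, each leaving out 1 library. The arms differ in more than ICRF, which cannot be told apart.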

How the results depend on the processing

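Each of 72 log2 fold changes (9 genes in 8 comparisons) was recomputed under the alternatives, giving 1116 values. Of these, 992 kept their direction and side of the threshold, 23 lost the call, 50 gained it and 51 changed sign, and 0 of those 51 were called both ways. Deviations of same-numbered libraries correlated at 0.28, 0.35 and 0.35 in 3 pairs of siRNA groups, but at 0.01 to 0.03 in the 3 pairs with siControl progestin and at 0.06 in the ICRF pair, so a shared origin is not shown for all groups. The replicate block moved the genes called for the difference between siCEBPA and siControl responses to 2271, against 1329 without it, and the members called to 1 (NEAT1), against 0. It also brought past the threshold MALAT1 and DANCR for the hormone in siCEBPA cells, ZFAS1 and DANCR for the hormone in siControl cells, NEAT1 and DANCR for the knockdown in untreated cells, NEAT1 for the ICRF minus siControl response and DANCR for that difference in untreated cells, and took no member's call away. With 1 library left out that count of genes ran from 692 to 1381. The sign changes were all in values not called, and the cause was not tested. With upper quartile factors the siCEBPA minus siControl response was -0.01 for GAS5 and -0.01 for SNHG1, the ICRF hormone change was -0.07 for ZFAS1 and -0.05 for DANCR, and the ICRF minus siControl response was 0.02 for MALAT1 and 0.03 for GAS5. With library totals alone the ICRF minus siControl response was 0.13 for MALAT1, 0.14 for GAS5, 0.09 for SNHG12 and 0.01 for DANCR, the siCEBPA minus siControl response 0.00 for SNHG1, and the ICRF minus siControl difference in untreated cells 0.00 for SNHG8. With no filter on low counts the ICRF minus siControl response was 0.01 for MALAT1 and 0.01 for GAS5, and the untreated difference 0.00 for SNHG8. With 1 library left out, the knockdown change in untreated cells ran from -0.09 to 0.58 for MALAT1 and -0.04 to 0.13 for SNHG12, and in treated cells from -0.03 to 0.14 for NEAT1 and -0.08 to 0.24 for SNHG12. The siCEBPA minus siControl response then ran from -0.05 to 0.08 for GAS5, -0.07 to 0.09 for SNHG1, -0.11 to 0.21 for SNHG12, -0.01 to 0.10 for SNHG15, -0.02 to 0.07 for ZFAS1 and -0.07 to 0.26 for DANCR. The ICRF hormone change of ZFAS1 ran from -0.04 to 0.05. The ICRF minus siControl response ran from -0.39 to 0.27 for MALAT1, -0.08 to 0.05 for GAS5 and -0.21 to 0.11 for SNHG12, and the untreated difference from -0.05 to 0.07 for SNHG8 and -0.08 to 0.02 for SNHG15. Where a fit left 1 library in a group, that library is assumed to vary like the others. Depth limits SNHG12 most, the least abundant of the 9.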

Other observations

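The summed level of the 7 snoRNA host RNAs was 421 and 417 CPM in ICRF progestin libraries, against 503 and 498 CPM in ICRF untreated libraries. In siRNA cells it was 627 and 596 CPM in siControl progestin libraries, against 575 and 613 CPM in siControl untreated libraries, and those groups overlap. It was 442 and 427 CPM in siCEBPA progestin libraries, against 403 and 418 CPM in siCEBPA untreated libraries. The siCEBPA sums were therefore below all siControl sums. The steroid receptor genes NR3C1, NR3C2 and PGR were lower with progestin in siControl and siCEBPA cells. NR3C2, the mineralocorticoid receptor gene, had 5.14 CPM in both ICRF progestin libraries, against 4.37 and 4.79 CPM in ICRF untreated libraries, while NR3C1 and PGR fell with progestin in ICRF cells. The NR3C2 difference between ICRF and siControl responses was 1.63 ± 0.17 (edgeR adjusted p = 9.89e-08).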
